A study of Homo sapiens with 24 samples.

Results

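U937 is a human cell line of monocytic character that was derived from a histiocytic lymphoma and serves as a model of monocyte and macrophage biology. The arrays described here are the 6 that the labels assign to U937 cells, out of 24 in the series. On 3 of them RNA came from cells treated with R406 at 4 µM for 24 h, and on the other 3 from cells treated with the vehicle dimethyl sulfoxide (DMSO) for 24 h. The series profiled the myeloid leukemia lines MOLM-14, HL-60 and KG-1 with the same groups of 3 arrays, and its title concerns integrin beta 3 signalling in leukemia. The labels name no other agent and no genetic change in any group. They give the dose in µM in the treatment protocol, which is used here, and in mM in the design text.

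R406 is the active form of the drug fostamatinib and inhibits the tyrosine kinase SYK as well as other kinases. SYK binds phosphorylated ITAM motifs, short tyrosine motifs in receptor adaptors such as TYROBP and FCER1G, and relays signals from Fc receptors, other immune receptors and integrins to the kinases of the ERK and PI3K pathways. In monocytes and macrophages these routes govern phagocytosis, the release of chemokines and survival. ERK signalling in turn induces its own feedback genes, including the DUSP phosphatases and the SPRY inhibitors.

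Intensities are given for each array in the order of its replicate number, DMSO before R406, and were made by the authors with RMA, which puts all arrays on a shared scale. The 6 U937 arrays had median intensities between 19.7 and 20.3 and a highest intensity of 11571. Each log2 fold change is the R406 mean less the DMSO mean, taken after adding 1 to the intensity, which understates the change of dim genes. They are given ± the standard error (SE) of a limma model over all 24 arrays and 12165 genes, from 3 against 3 arrays. A gene was called when its limma p-value, adjusted over all genes by the Benjamini-Hochberg method, lay under 0.05, and "rose" and "fell" are used only of such genes. The number of arrays limits the precision. Nothing in the labels states that replicate arrays came from separate cultures. The SE and p-values therefore reflect only the spread between arrays within the groups of all 4 lines, not of U937 alone, and this spread may be technical.

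The untreated cells carried part of the marker set of a monocytic line. The integrin chain ITGB2 had a mean DMSO intensity of 1387, and the Fc receptors FCGR1A and FCGR2A had means of 84.5 and 56.6, against a median of 35.2 over all genes. ITGAM, the partner of ITGB2, stood at 80.1. The mature markers CD14 (7.40), CD68 (8.45), CSF1R (13.4) and CD86 (10.2) lay below the median of all genes. So did CD4 (27.7), MPO (10.9), an enzyme of early granules, and SPI1 (21.1), a myeloid transcription factor. CD33 and LYZ were not analysed here. Of the markers of erythroid, megakaryocytic, B, T and NK, fibroblast and epithelial cells, NKG7, a granule membrane protein of cytotoxic cells, was the only gene with a mean DMSO intensity above 100 (811). None of the erythroid, megakaryocytic, B cell, fibroblast and epithelial markers was called in U937. Of 19 markers of T and NK cells, the adhesion molecule NCAM1 was called at 0.44 ± 0.11, a call lost when DMSO replicate 1 or either of R406 replicates 1 and 3 was left out and when its probe sets were averaged, and the summed intensity of these 19, most of it NKG7, ran from 953 to 993 with DMSO and from 1093 to 1144 with R406. Its part in the results was not tested. The log2 ratio of 3' to 5' control probe sets, a measure of RNA integrity, differed between R406 and DMSO by -0.039 for ACTB (exact permutation test, two-sided, p = 0.6, n = 3 against 3) and by -0.0058 for GAPDH (exact permutation test, p = 1). The smallest p this design allows is 0.1.

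R406 moved many U937 transcripts by small amounts. In bulk RNA, fewer cells in a state and less RNA per cell cannot be told apart. The model called 742 genes higher (6.10% of all tested) and 660 lower (5.43%), and 14 (0.115%) and 7 (0.0575%) of these changed at least 2-fold. The median size of the log2 fold change over all genes was 0.099, against 0.29 in MOLM-14, 0.11 in HL-60 and 0.20 in KG-1. The 3 R406 arrays lay above all 3 DMSO arrays for 18.2% of genes and below them for 15.9%. The genes called lower numbered 434 without R406 replicate 1 and 428 without R406 replicate 3. Genes called higher made up 52.9% of the calls, and 41.0% when each array was centred on its median.

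**Figure D1:**
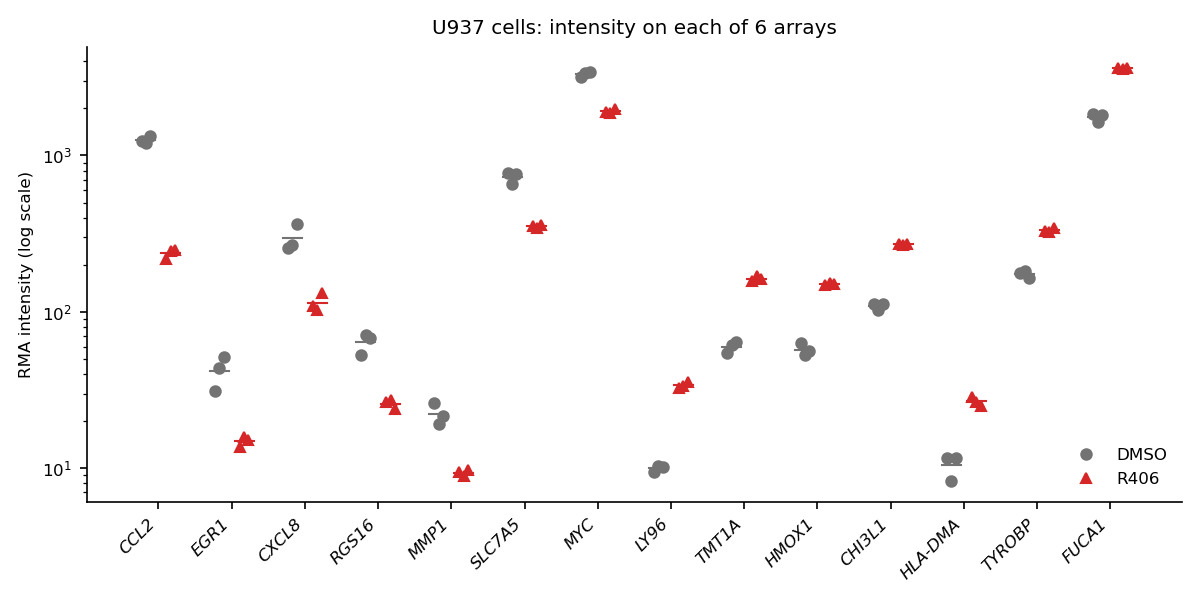
RMA intensity on a logarithmic axis of 14 genes in U937 cells, with 3 DMSO arrays (grey circles) and 3 R406 arrays (red triangles) per gene and a short line at each group mean. The R406 arrays lie below the DMSO arrays for the 7 genes from CCL2 to MYC and above them for the 7 genes from LY96 to FUCA1. For CCL2 they lie at 218 to 249 against 1208 to 1326.

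The largest change in either direction was in CCL2, the chemokine that draws monocytes to inflamed tissue. Its intensities were 1231, 1208 and 1326 with DMSO and 218, 246 and 249 with R406, a fall of 2.40 ± 0.12 on the log2 scale (limma, adjusted p = 3.29e-11). The groups were far apart, with little spread within each. CXCL8, which attracts neutrophils, read 256, 266 and 362 with DMSO and 110, 102 and 131 with R406 (-1.35 ± 0.12, limma, adjusted p = 2.43e-07). The groups did not overlap here either. Another of the 9 probe sets of CXCL8 changed by -1.55 (limma, adjusted p = 5.6e-06 over all probe sets). The rest were not called, and the change was -0.30 when all were averaged. IL1B, the inflammatory cytokine interleukin 1 beta, went from 44.0, 53.8 and 63.8 to 30.5, 29.1 and 31.7 (-0.79 ± 0.12). VEGFA, the growth factor of blood vessels, went from 295, 313 and 353 to 196, 193 and 197 (-0.71 ± 0.13). All of these kept a gap between the lowest DMSO and the highest R406 array. TNF, the cytokine tumor necrosis factor, fell by 0.63 ± 0.16 on the log2 scale (limma, adjusted p = 0.0114, and 0.0838 without DMSO replicate 3 or 0.0706 without R406 replicate 3).

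A few secreted factors rose. CCL23, a chemokine for monocytes and resting lymphocytes, had 99.4, 91.7 and 87.9 with DMSO and 145, 160 and 156 with R406 (0.72 ± 0.085). GRN, the growth factor progranulin, which also enters lysosomes, rose by 0.73 ± 0.082. Of the 55 chemokines and cytokines measured, 2 were called higher (6.10% of all genes were) and 7 lower (5.43%), and their median change was -0.03 against 0.0029 over all genes. The count of 7 dropped to 4 without R406 replicate 3. R406 arrays lay below all DMSO arrays for 12 of the 55, against 15.9% of all genes.

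The promoter of CXCL8 is shown because it is the called chemokine gene whose upstream sequence holds the letters of a site for AP-1, the dimer of FOS and JUN proteins. The sequence is the 250 bases before the gene start from RefSeq, build GRCh38.p14, at chr4:73740319-73740568 on the plus strand, written 5′ to 3′ with the match to TGANTCA in capitals.
CXCL8: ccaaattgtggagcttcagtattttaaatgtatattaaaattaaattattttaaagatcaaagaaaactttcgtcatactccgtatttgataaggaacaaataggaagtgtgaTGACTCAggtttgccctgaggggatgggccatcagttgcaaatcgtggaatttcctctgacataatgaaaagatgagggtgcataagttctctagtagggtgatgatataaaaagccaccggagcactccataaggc
Both strands were searched, over the 9711 measured genes that matched a RefSeq promoter by symbol. TGANTCA was present upstream of 8 of 41 chemokine and cytokine genes (19.5%) and of 4.71% of all promoters. Among the 7 called chemokine and cytokine genes with a promoter, CXCL8 alone had it. A match describes the letters and says nothing on binding.

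Among receptors for such factors, FPR1 and CCR2 had large increases. FPR1, a receptor for bacterial formyl peptides, read 10.6, 12.8 and 11.96 with DMSO and 23.7, 24.9 and 29.4 with R406 (1.08 ± 0.12, limma, adjusted p = 4.66e-06), with no overlap. The change was 0.55 when its probe sets were averaged. CCR2, the receptor for CCL2, went from 19.2, 15.3 and 20.5 to 31.9, 35.2 and 36.3 (0.88 ± 0.13, limma, adjusted p = 7.36e-05). Its groups did not overlap, and the change was 0.55 with probe sets averaged. CX3CR1, the fractalkine receptor, rose by 0.70 ± 0.13, and the nucleotide receptor P2RY2 fell by 0.52 ± 0.10. In the list of 38 chemoattractant and cytokine receptors, 5 were called higher (6.10% of all genes were) and 3 lower (5.43%).

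Genes that report ERK activity were lower. Of 18 measured members of the ERK output and feedback list, 10 fell (5.43% of all genes did) and none rose (6.10%). Of the 18, 17 lay below 0, and the median change was -0.38 against 0.0029 over all genes. ETV5, an ETS transcription factor induced by ERK, had 221, 243 and 225 with DMSO and 137, 124 and 131 with R406 (-0.81 ± 0.12, limma, adjusted p = 8.51e-05). MAFF, a small MAF transcription factor, went from 75.7, 84.8 and 102 to 43.5, 49.2 and 56.4 (-0.80 ± 0.15). FOSL1, an AP-1 subunit, went from 23.3, 28.3 and 23.9 to 14.9, 14.8 and 14.4 (-0.73 ± 0.11). None of these overlapped between the groups. The ERK phosphatase DUSP4 fell by 0.69 ± 0.13 and the receptor kinase inhibitor SPRY2 by 0.52 ± 0.091. DUSP6, a phosphatase that acts on ERK itself, stood apart from this list, with 344, 371 and 369 on the DMSO arrays and 329, 378 and 401 on the R406 arrays (0.03 ± 0.10, limma, adjusted p = 0.934). Its groups overlapped fully.

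Immediate early genes, which are transcribed within minutes of a stimulus, did not follow as a group. EGR1, a zinc finger factor, had 31.4, 43.6 and 51.2 with DMSO and 13.6, 15.8 and 15.2 with R406 (-1.42 ± 0.19, limma, adjusted p = 2.14e-05), or -0.78 with its probe sets averaged. DUSP2, a nuclear MAP kinase phosphatase, fell by 0.73 ± 0.14. These were the 2 of 26 measured immediate early genes called lower (5.43% of all genes were). Only 1 was called higher (6.10%), the zinc finger factor KLF6 (0.29 ± 0.084). The call for KLF6 was lost in 5 of the 6 fits that left out a U937 array, all but that without DMSO replicate 3, and with its probe sets averaged (limma, adjusted p = 0.218). Without KG-1 R406 replicate 2, 7 of the 26 were called lower (6.50% of all genes were). The median change of the list was -0.07.

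RGS16, which speeds the shutdown of G protein signals, was among the lowest genes, at 53.2, 71.1 and 67.8 with DMSO and 26.5, 27.2 and 23.8 with R406 (-1.27 ± 0.14, limma, adjusted p = 3.34e-06). It was the only one of 15 measured RGS genes called lower (5.43% of all genes were). RGS2 and RGS12 were called higher (6.10% of all genes were), at 0.58 ± 0.13 and 0.55 ± 0.16, the latter 0.32 with its probe sets averaged. The call for RGS12 was lost without DMSO replicate 2, DMSO replicate 3 or R406 replicate 1 (limma, adjusted p = 0.112, 0.129 and 0.186). MMP1, a collagenase, read 26.2, 19.3 and 21.5 against 9.44, 8.87 and 9.68 (-1.17 ± 0.11). Its R406 arrays reached the range of the dimmest marker genes. PHLDA2, a small protein of growth control, fell by 1.07 ± 0.11, or by 0.56 with its probe sets averaged.

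Of 13 measured outputs of the transcription factor STAT5, 4 fell (5.43% of all genes did) and 1 rose (6.10%), with a median of -0.03. The member that rose was BCL6, at 0.49, with its other probe set at 0.19 (limma, adjusted p = 0.427). CCND2, a cyclin of the G1 phase, went from 638, 691 and 676 to 379, 341 and 333 (-0.93 ± 0.078, limma, adjusted p = 9.60e-08), with no overlap. SOCS2, a feedback inhibitor of cytokine signalling, fell by 0.53 ± 0.12 and the survival kinase PIM2 by 0.46 ± 0.11. CISH, another feedback inhibitor, fell by 0.46 ± 0.11, a call that was lost without R406 replicate 3 (limma, adjusted p = 0.0697). BATF3, an AP-1 family factor of myeloid cells, went from 222, 263 and 266 to 126, 130 and 126 (-0.97 ± 0.099).

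The drug target itself did not pass the test. SYK read 482, 495 and 449 with DMSO and 503, 482 and 490 with R406 (0.05 ± 0.065, limma, adjusted p = 0.763), with overlapping groups. Some of its partners rose. TYROBP, the ITAM adaptor of several myeloid receptors, had 178, 184 and 165 with DMSO and 328, 324 and 345 with R406 (0.92 ± 0.097, limma, adjusted p = 2.10e-06). FCGR2B, the Fc receptor with an inhibitory motif, had 38.9, 39.2 and 39.0 and then 67.0, 85.4 and 74.6 (0.93 ± 0.14). BLNK, a scaffold that SYK phosphorylates, had 16.3, 13.04 and 14.2 and then 28.2, 28.5 and 27.7 (0.91 ± 0.11). No array of these genes crossed between the groups. The activating Fc receptors FCGR2A and FCGR1A rose by 0.57 ± 0.13 and 0.51 ± 0.12, the latter by 0.28 with its probe sets averaged. FCGR2A and FCGR2B are near copies, and their probe sets may share transcripts.

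In the SYK and ITAM signalling list as a whole, 9 of 26 members rose (6.10% of all genes did) and none fell, with a median of 0.10. The count was 5 when DMSO replicate 1 or 3, or R406 replicate 1 or 2, was left out. FCER1G, the ITAM chain of Fc receptors, was called at 0.38 ± 0.12, and the SRC family kinase LYN at 0.25 ± 0.077. The FCER1G call was lost without any of the 6 U937 arrays, and the LYN call without any but DMSO replicate 2. Among 21 further innate receptors with ITAM or ITIM links, 2 rose (6.10% of all genes did). They were the collagen receptor LAIR1 (0.42 ± 0.064) and the phosphatase PTPRC (0.39 ± 0.099). The PTPRC call was lost without DMSO replicate 1 or R406 replicate 2 (limma, adjusted p = 0.053 and 0.0543).

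Genes of the monocyte and macrophage list rose in part. Of 45 measured, 15 rose (6.10% of all genes did) and 1 fell (5.43%), with a median of 0.20. CHI3L1, a chitinase-like protein secreted by macrophages, read 112, 103 and 112 with DMSO and 273, 267 and 270 with R406 (1.30 ± 0.090, limma, adjusted p = 4.60e-09). ITGAM, the alpha chain of complement receptor CR3, went from 75.4, 80.7 and 84.3 to 140, 147 and 123 (0.76 ± 0.085, or 0.49 with its probe sets averaged). GPNMB, a lysosome-linked glycoprotein of macrophages, went from 1391, 1284 and 1313 to 1864, 2033 and 2163 (0.60 ± 0.13). The groups did not overlap for any of these. CD86, a costimulatory ligand, rose by 0.73 ± 0.14 from a dim level of 10.2, or by 0.32 with its probe sets averaged, and NCF4, a subunit of the phagocyte oxidase, rose by 0.48 ± 0.065. The exception was CYBB, the catalytic subunit of that oxidase, with 365, 348 and 375 and then 258, 232 and 265 (-0.53 ± 0.13, or -0.33 with its probe sets averaged). The mature marker CD14 read 7.50, 6.18 and 8.52 with DMSO and 7.71, 8.57 and 6.42 with R406 (0.03 ± 0.13, limma, adjusted p = 0.946), so that its groups overlapped near the floor of the array.

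The 2 largest increases were in surface proteins of innate cells. LY96, the coreceptor with which TLR4 binds endotoxin, went from 9.47, 10.4 and 10.2 to 32.7, 33.5 and 35.5 (1.66 ± 0.14, limma, adjusted p = 9.22e-08). MS4A4A, a membrane protein of macrophages, went from 79.8, 88.4 and 87.9 to 234, 264 and 290 (1.60 ± 0.38, limma, adjusted p = 0.00653). Both were separated by more than their spread. LY86, the related partner of the receptor CD180, rose by 0.64 ± 0.088. Of 20 Toll-like receptors and adaptors, 2 rose (6.10% of all genes did) and 1 fell (5.43%), and the median was 0.02. LY96 and LY86 made up the increases. MAP3K8, the kinase that links these receptors to ERK, had 8.54, 7.57 and 6.70 and then 17.7, 16.2 and 18.2 (1.10 ± 0.12).

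C2, S100A8 and ANXA1 were among the 20 largest increases. C2, a complement protease, had 41.5, 41.9 and 42.1 with DMSO and 86.2, 88.6 and 94.2 with R406 (1.08 ± 0.13). S100A8, a calcium binding protein of monocytes and neutrophils, had 209, 225 and 242 and then 449, 413 and 434 (0.94 ± 0.15, or 0.59 with its probe sets averaged). ANXA1, an annexin that dampens inflammation, had 216, 214 and 249 and then 450, 442 and 462 (0.99 ± 0.068). In all 3 every R406 array lay far above the highest DMSO array. Among 16 measured S100 genes, 4 rose (6.10% of all genes did) and none fell. CFD, the complement factor D protease, rose by 0.75 ± 0.15 and RNASE2, an antimicrobial ribonuclease, by 0.37 ± 0.076. HP, the hemoglobin scavenger haptoglobin, was called higher at 1.05 ± 0.16, but its other probe sets changed by -0.69 (limma, adjusted p = 0.000116) and -0.04 (limma, adjusted p = 0.931), so no direction is given for it.

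Antigen presentation genes were called in part. HLA-DMA, which loads peptides on class II molecules, went from 11.5, 8.29 and 11.7 to 28.5, 26.5 and 25.2 (1.28 ± 0.097, limma, adjusted p = 2.35e-08). It was the only one of 12 measured MHC class II genes called (6.10% of all genes were called higher). HLA-DRA stood at 10.1, 10.7 and 10.5 on the R406 arrays against 8.30, 9.36 and 11.1 (0.12 ± 0.085). HLA-DRB1 was not called on its brightest probe set (0.29). Its other probe sets gave 0.32 and 0.61, the latter with limma, adjusted p = 4.5e-05 over all probe sets. In the MHC class I list, 6 of 18 rose (6.10% of all genes did) and 1 fell (5.43%). The 6 became 3 without DMSO replicate 1 or R406 replicate 3. The immunoproteasome subunits PSMB9 and PSMB10 rose by 0.58 ± 0.080 and 0.35 ± 0.057. Of 41 interferon response genes, 8 rose (6.10% of all genes did) and 2 fell (5.43%), and 5 rose without R406 replicate 3. The 2 that fell made up 4.88% of the list. IFI35, an interferon-induced leucine zipper protein, had 11.8, 12.9 and 15.7 and then 28.5, 22.7 and 27.9 (0.92 ± 0.12), and the DNA sensor IFI16 rose by 0.67 ± 0.10. The membrane proteins IFITM2 and IFITM3, near copies whose probe sets may share transcripts, fell by 0.27 ± 0.076 and 0.35 ± 0.087. The IFITM2 call was lost in each fit without a U937 array other than DMSO replicate 2, and the IFITM3 call without DMSO replicate 3.

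Many lysosomal genes rose. Lysosomes break down proteins, lipids and sugars with acid hydrolases, and many of their genes carry the CLEAR element, a site for the transcription factors TFEB and TFE3 built around the letters TCACGTG. Of 45 lysosomal enzymes and cofactors measured, 20 rose (6.10% of all genes did) and 1 fell (5.43%). Of these 45, 38 lay above 0, and the median change was 0.23. For 29 of the 45 all R406 arrays lay above all DMSO arrays, against 18.2% of all genes. Of 39 lysosomal membrane proteins and proton pump subunits, 12 rose (6.10% of all genes did) and none fell, with a median of 0.15. The 12 became 7 without R406 replicate 1 or 2. The member that fell, the acid phosphatase ACP2 (-0.35 ± 0.10), lost its call without DMSO replicate 1, 2 or 3 or R406 replicate 3.

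Upstream sequences of 4 lysosomal genes that rose are printed because each holds TCACGTG. They are the 250 bases before each gene start from RefSeq, build GRCh38.p14, 5′ to 3′ on the gene's strand, with TCACGTG in capitals. Both strands were searched, so TCACGTGA counts as a match on each strand. TCACGTG contains the E-box CACGTG, which is also the core site of MYC. NEU1 lies at chr6:31862822-31863071 on the minus strand, SCPEP1 at chr17:56977881-56978130 on the plus strand, CTSA at chr20:45891085-45891334 on the plus strand and ATP6V0D1 at chr16:67481158-67481407 on the minus strand.
NEU1: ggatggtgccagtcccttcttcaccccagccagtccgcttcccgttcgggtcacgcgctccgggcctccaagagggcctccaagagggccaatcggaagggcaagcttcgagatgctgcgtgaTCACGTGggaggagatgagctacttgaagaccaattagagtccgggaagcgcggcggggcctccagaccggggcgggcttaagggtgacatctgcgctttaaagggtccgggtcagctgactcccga
SCPEP1: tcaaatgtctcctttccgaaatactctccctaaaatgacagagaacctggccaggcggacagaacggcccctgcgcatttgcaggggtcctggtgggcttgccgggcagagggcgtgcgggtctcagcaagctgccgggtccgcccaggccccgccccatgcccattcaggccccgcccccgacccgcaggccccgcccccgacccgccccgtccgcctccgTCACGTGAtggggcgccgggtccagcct
CTSA: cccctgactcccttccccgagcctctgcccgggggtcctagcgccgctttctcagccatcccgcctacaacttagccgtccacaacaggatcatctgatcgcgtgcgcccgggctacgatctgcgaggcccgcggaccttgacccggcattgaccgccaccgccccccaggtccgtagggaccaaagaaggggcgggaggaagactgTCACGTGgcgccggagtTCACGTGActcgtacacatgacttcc
ATP6V0D1: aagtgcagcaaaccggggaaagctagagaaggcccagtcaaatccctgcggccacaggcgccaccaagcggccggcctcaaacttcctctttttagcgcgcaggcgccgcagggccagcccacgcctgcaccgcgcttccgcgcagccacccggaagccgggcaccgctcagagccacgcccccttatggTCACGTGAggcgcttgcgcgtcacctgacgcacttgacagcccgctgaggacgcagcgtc
TCACGTG was present upstream of 8 of 32 lysosomal enzyme genes with a promoter (25%) and 7 of 31 lysosomal membrane genes (22.6%), against 4.78% of all 9711 promoters. It was present in 6.17% of the promoters of all genes called higher in U937 and in 4.28% of those called lower. Of the lysosomal genes with a promoter that were called in either direction, 5 of 13 enzymes and 1 of 9 membrane genes had it. NEU1 is the lysosomal sialidase, CTSA the protective protein that holds it, SCPEP1 a carboxypeptidase and ATP6V0D1 a subunit of the proton pump.

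The values of these 4 genes, chosen after their values were seen with the exception of ATP6V0D1, were as follows. NEU1 had 354, 325 and 331 with DMSO and 452, 473 and 488 with R406 (0.48 ± 0.076, limma, adjusted p = 0.000166). ATP6V0D1 had 332, 314 and 352 and then 569, 496 and 462 (0.61 ± 0.090, limma, adjusted p = 8.51e-05). SCPEP1 rose by 0.55 ± 0.13 and CTSA by 0.32 ± 0.077. In each of the 4 the lowest R406 array was above the highest DMSO array. The largest change among lysosomal enzymes was in FUCA1, which removes fucose from glycoproteins, with 1837, 1630 and 1821 and then 3598, 3586 and 3641 (1.03 ± 0.099, limma, adjusted p = 5.08e-07). Cathepsin S, CTSS, read 260, 241 and 262 against 427, 410 and 417 (0.71 ± 0.083). NPC2, which carries cholesterol out of lysosomes, read 1760, 1807 and 1861 against 2831, 2872 and 2869 (0.66 ± 0.065). These increases came with little spread on either side.

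Further enzymes of lipid breakdown followed, the hexosaminidase HEXA at 0.60 ± 0.068, its activator GM2A at 0.61 ± 0.076 and the saposin precursor PSAP at 0.50 ± 0.062. The protease TPP1 rose by 0.57 ± 0.069, the pump subunit TCIRG1 by 0.60 ± 0.098 and the membrane protein CD63 by 0.51 ± 0.073. Averaging probe sets gave 0.41 for GM2A and 0.37 for TPP1. The transcript of TFEB was not called (0.07 ± 0.10, limma, adjusted p = 0.80), and that of TFE3 was called at 0.34 ± 0.086. The TFE3 call was lost without DMSO replicate 1 or 3 or R406 replicate 1 (limma, adjusted p = 0.0697, 0.0513 and 0.0664). Of 24 autophagy genes, 5 rose (6.10% of all genes did) and none fell. Those that rose included the cargo receptor OPTN (0.92 ± 0.17) and the membrane conjugate GABARAP (0.31 ± 0.068). Without DMSO replicate 1 the count was 3.

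**Figure D2:**
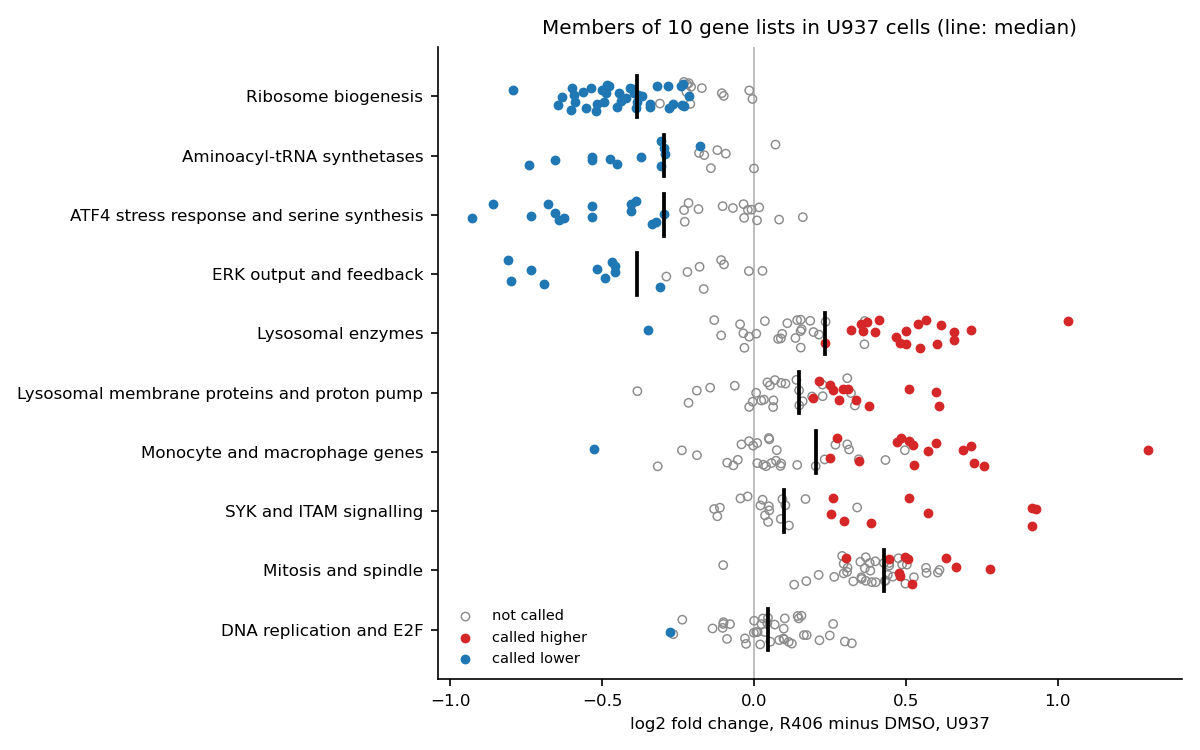
Log2 fold change in U937 cells, R406 minus DMSO, of each measured member of 10 gene lists, with filled points for genes called higher (red) or lower (blue), open points for the others and a black line at the list median. The medians run from -0.39 for ribosome biogenesis to 0.43 for mitosis and spindle genes, where most points are open although they lie above 0.

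Most genes that build ribosomes fell. Of 52 measured ribosome biogenesis genes, 40 fell (5.43% of all genes did) and none rose, and all 52 lay below 0. Their median change was -0.39 against 0.0029 over all genes, and 48 of 52 had all R406 arrays below all DMSO arrays, against 15.9% of all genes. NPM3, a nucleolar chaperone, had 523, 740 and 558 with DMSO and 334, 361 and 342 with R406 (-0.79 ± 0.11, limma, adjusted p = 4.54e-05). RRP15, a factor of the large ribosomal subunit, had 361, 337 and 335 and then 230, 215 and 221 (-0.63 ± 0.093). DDX21, a helicase of ribosomal RNA processing, had 1933, 1978 and 1958 and then 1349, 1244 and 1299 (-0.59 ± 0.066). The groups stayed clear of each other in all 3. By array, the list median relative to the DMSO mean was 0.026, -0.019 and 0.0070 with DMSO and -0.36, -0.40 and -0.37 with R406. The count of 40 stayed between 33 and 38 when any U937 array was left out.

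MYC, the transcription factor that drives much of this program, read 3159, 3382 and 3440 with DMSO and 1896, 1859 and 1977 with R406 (-0.80 ± 0.091, limma, adjusted p = 4.54e-06). The 3 R406 arrays were close together and well below every DMSO array. In its network list, with 12 genes measured, MYC itself was the 1 that fell (5.43% of all genes did). MXD3, which opposes MYC at shared sites, was the 1 that rose (0.59 ± 0.16), where 6.10% of all genes did. That call was lost without DMSO replicate 2 or 3 or R406 replicate 3 (limma, adjusted p = 0.0514, 0.0542 and 0.0624). Enzymes downstream of MYC included ODC1 (-0.46 ± 0.093) and SRM (-0.45 ± 0.059), which make polyamines. SAT1, which breaks polyamines down, had 233, 242 and 252 and then 369, 380 and 395 (0.65 ± 0.058, or 0.42 with its probe sets averaged). Of 15 polyamine genes, 4 fell (5.43% of all genes did) and SAT1 was the 1 that rose (6.10%). Of 23 purine and pyrimidine synthesis genes, 7 fell (5.43% of all genes did) and none rose. The lower count was 4 without DMSO replicate 1 or R406 replicate 3. It was 11 with the U937 arrays alone (7.10% of all genes) or without KG-1 R406 replicate 2 (6.50%). Among the 7 were PPAT, the first committed enzyme of purine synthesis (-0.50 ± 0.066), PFAS (-0.51 ± 0.097) and the cytidine triphosphate synthase CTPS1 (-0.44 ± 0.084).

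Transcripts of some amino acid transporters and of most aminoacyl-tRNA synthetases were lower. SLC7A5, which imports large neutral amino acids, went from 777, 654 and 762 to 355, 345 and 361 (-1.04 ± 0.084, limma, adjusted p = 6.18e-08). SLC3A2, the chain that SLC7A5 needs at the cell surface, went from 180, 161 and 164 to 107, 106 and 109 (-0.64 ± 0.075). Both chains of this transporter were thus below their DMSO range on every R406 array. Of 22 amino acid transporters, 8 fell (5.43% of all genes did) and 1 rose (6.10%), 9 lay above 0, and the median was -0.07. SLC7A7, which pairs with SLC3A2 as well, was the member that rose (0.52 ± 0.13, with limma, adjusted p = 0.0558 without DMSO replicate 3). Of 19 aminoacyl-tRNA synthetases, which load amino acids on tRNA, 12 fell (5.43% of all genes did) and none rose, with a median of -0.30. The methionine enzyme MARS1 had 704, 664 and 645 and then 372, 410 and 421 (-0.74 ± 0.087), and the tryptophan enzyme WARS1 had 417, 435 and 438 and then 272, 276 and 270 (-0.66 ± 0.082). Without DMSO replicate 2 or R406 replicate 3 the count was 8.

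ATF4, the transcription factor of the amino acid and stress response, read 1873, 1841 and 1781 with DMSO and 1117, 1114 and 1201 with R406 (-0.68 ± 0.059, limma, adjusted p = 1.26e-07). Of 29 measured members of the ATF4 and serine synthesis list, 15 fell (5.43% of all genes did) and none rose, with a median of -0.30. PSAT1, an enzyme of serine synthesis, had 326, 187 and 296 and then 148, 137 and 128 (-0.93 ± 0.19), so its DMSO arrays were more scattered than its R406 arrays. CBS, the first enzyme from homocysteine to cysteine, had 32.8, 29.5 and 31.4 and then 19.6, 14 and 17.1 (-0.86 ± 0.13). TRIB3, a pseudokinase that feeds back on ATF4, had 348, 338 and 348 and then 223, 210 and 189 (-0.73 ± 0.092). The groups were separate for all of these. The asparagine synthetase ASNS fell by 0.63 ± 0.069, the mitochondrial folate enzyme MTHFD2 by 0.53 ± 0.064 and the mTOR inhibitor DDIT4 by 0.64 ± 0.076.

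The ASNS promoter is printed because it holds the letters of the CARE element, at which ATF4 pairs with CEBP proteins. It is the 250 bases before the gene start from RefSeq, build GRCh38.p14, at chr7:97872409-97872658 on the minus strand, 5′ to 3′, with the match to TGATGNAA in capitals.
ASNS: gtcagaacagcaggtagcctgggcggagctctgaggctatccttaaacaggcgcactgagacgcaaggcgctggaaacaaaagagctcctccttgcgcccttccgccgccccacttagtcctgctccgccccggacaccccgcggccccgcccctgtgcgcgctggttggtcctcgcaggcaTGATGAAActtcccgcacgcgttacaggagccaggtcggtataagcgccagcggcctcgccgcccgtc
TGATGNAA, searched on both strands, was present in 3 of 24 promoters of the ATF4 list (12.5%) and in 1.96% of all promoters. Of the 13 called members with a promoter, ASNS alone had it. ASNS itself read 67.0, 80.0 and 78.8 with DMSO and 49.1, 49.1 and 46.6 with R406, with no overlap (limma, adjusted p = 3.80e-06).

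Protein folding and lipid synthesis genes were lower to a smaller extent. Of 31 endoplasmic reticulum chaperone and unfolded protein response genes, 30 lay below 0, none rose and 6 fell (5.43% of all genes did). The count was 3 without R406 replicate 1 and 10 with probe sets averaged. HYOU1, a large chaperone of that compartment, fell by 0.52 ± 0.093 and the transcription factor XBP1 by 0.41 ± 0.081. Of 30 heat shock and chaperonin genes, 9 fell (5.43% of all genes did) and none rose. The lower count was 5 without DMSO replicate 1 and 15 after median centring. TRAP1, a mitochondrial chaperone, went from 582, 568 and 582 to 413, 396 and 391 (-0.53 ± 0.091), without overlap. Of 34 cholesterol and fatty acid genes, 6 fell (5.43% of all genes did) and 1 rose (6.10%), or 3 fell without R406 replicate 1. INSIG1, which holds back sterol synthesis, went from 1794, 1736 and 1632 to 952, 1089 and 936 (-0.80 ± 0.10), and DHCR7, the last enzyme of cholesterol synthesis, fell by 0.56 ± 0.12. Every R406 array was below every DMSO array for INSIG1.

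Genes of mitosis had a small and even increase. Of 48 measured mitosis and spindle genes, 47 lay above 0, and the median change was 0.43 against 0.0029 over all genes. The R406 arrays of 46 lay above all their DMSO arrays, against 18.2% of all genes, and the exceptions were the checkpoint proteins BUB3 and MAD2L1. By array, the list median relative to the DMSO mean was 0.024, -0.024 and -0.0037 with DMSO and 0.42, 0.41 and 0.43 with R406. The summed intensity of the list ran from 35610 to 36260 with DMSO and from 46530 to 47320 with R406, so the sums did not overlap.

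How many of these genes passed the test depended on which other arrays set the error. With all 24 arrays, 10 of 48 rose (6.10% of all genes did), and 4 to 6 of the list did when any U937 array was left out. In the U937 arrays alone 45 were called higher (8.73% of all genes were), and without KG-1 R406 replicate 2 the count was 43 (7.81% of all genes). The median SD of the list, on the log2 scale, was 0.65 in the KG-1 R406 group, against 0.060 and 0.047 in the U937 DMSO and R406 groups. The U937 fold changes are identical in these fits, and only their SE differs.

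ASPM, which focuses the poles of the spindle, had 317, 306 and 322 with DMSO and 542, 549 and 532 with R406 (0.78 ± 0.17, limma, adjusted p = 0.00441). TACC3, a spindle stabiliser, had 519, 518 and 512 and then 718, 750 and 733 (0.51 ± 0.081, limma, adjusted p = 0.000210). PIMREG, a mitotic regulator, rose by 0.67 ± 0.15. For ASPM and TACC3 the groups were separate, with little spread within each. CDK1, the kinase that drives entry into mitosis, had 949, 1062 and 992 and then 1325, 1269 and 1232, a difference of 0.35. Its SE was 0.14 with all arrays (limma, adjusted p = 0.112) and 0.064 without KG-1 R406 replicate 2 (limma, adjusted p = 0.000610). CDC20, which activates the enzyme that ends mitosis, had 1684, 1563 and 1703 and then 2132, 2139 and 2205, a difference of 0.39 (limma, adjusted p = 0.357 with all arrays and 0.000208 without that array). CDK1 and CDC20 therefore did not overlap between the groups but were not called in the model of all arrays. PLK1, a mitotic kinase, differed by 0.31 (limma, adjusted p = 0.201 with all arrays, 0.0310 with U937 arrays alone and 0.0666 without KG-1 R406 replicate 2).

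**Figure D3:**
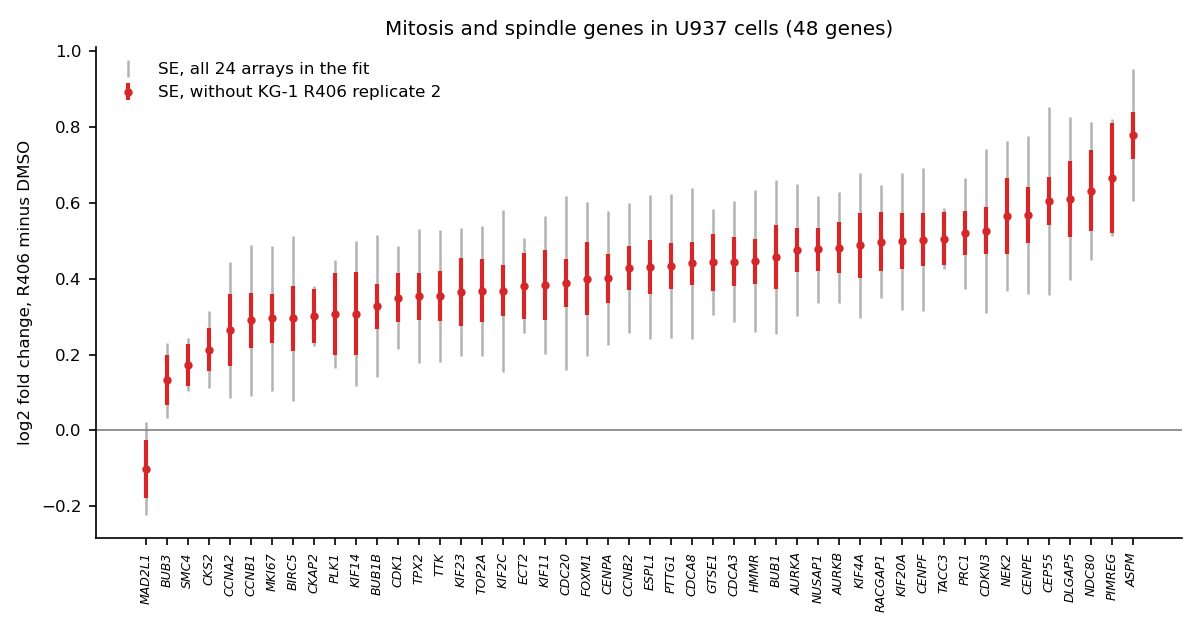
Log2 fold change in U937 cells, R406 minus DMSO, of the 48 mitosis and spindle genes ordered by value, with the SE of the model of all 24 arrays (grey) and of the model without KG-1 R406 replicate 2 (red). Of the 48 points 47 lie above 0, from BUB3 at 0.13 to ASPM at 0.78, and MAD2L1 lies at -0.10.

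Genes of DNA replication showed no shift of this size. Of 40 measured DNA replication and E2F genes, none rose (6.10% of all genes did) and 1 fell (5.43%), with a median of 0.05. The 1 was UNG, which removes uracil from DNA (-0.28 ± 0.081). Of the 40, 28 lay above 0. All R406 arrays lay above all DMSO arrays for 14 and below them for 5, against 18.2% and 15.9% of all genes. The median SD of this list was 0.46 in the KG-1 R406 group, against 0.061 and 0.043 in the U937 DMSO and R406 groups. In the U937 arrays alone 5 were called higher (8.73% of all genes) and 2 lower (7.10%). MCM7, a subunit of the replicative helicase, read 1385, 1345 and 1402 with DMSO and 1367, 1456 and 1468 with R406 (0.05 ± 0.080), and the S phase factor E2F1 read 51.2, 48.8 and 50.2 against 54.1, 48.2 and 51.6 (0.03 ± 0.14). Both overlapped between the groups. The UNG call was lost without any of the U937 arrays except DMSO replicate 2.

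Regulators of the G1 phase moved in both directions. Besides CCND2, the cyclin E gene CCNE1 fell by 0.38 ± 0.092 and E2F5, an E2F factor that represses, by 0.79 ± 0.13 (0.49 with probe sets averaged). The CCNE1 call was lost without R406 replicate 3 (limma, adjusted p = 0.0520). Of 20 such genes, 3 fell (5.43% of all genes did) and 2 rose (6.10%). The CDK inhibitor CDKN1A read 29.6, 31.5 and 38.9 with DMSO and 42.8, 39.9 and 32.1 with R406 (0.19 ± 0.16, limma, adjusted p = 0.573), with overlapping groups. Among genes linked to FOXO factors and quiescence, 7 of 21 rose (6.10% of all genes did) and none fell. The 7 became 4 without DMSO replicate 2 or 3 or R406 replicate 3. CCNG2, an atypical cyclin of resting cells, had 98.0, 118 and 110 and then 189, 168 and 183 (0.73 ± 0.095), and YPEL5 had 80.9, 81.0 and 82.7 and then 122, 128 and 150 (0.70 ± 0.082). Both were separate between the groups.

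Histone genes were called in part. Of 42 measured, 8 rose (6.10% of all genes did) and none fell, with a median of 0.05 against 0.0029 over all genes. H2AC6 read 41.1, 37.7 and 39.8 with DMSO and 87.4, 104 and 108 with R406 (1.31 ± 0.17, limma, adjusted p = 2.08e-05), and H2BC12 read 187, 191 and 189 against 333, 372 and 371 (0.92 ± 0.11). The groups lay far apart for both. The count of 8 was 3 without DMSO replicate 1 4 when DMSO replicate 3, R406 replicate 1 or R406 replicate 3 was absent, and 5 in the absence of R406 replicate 2. Histone genes of a family are near copies, so a probe set may report more than its named gene.

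Some genes that answer to foreign chemicals and oxidants rose. CYP1A1, an oxidase induced through the aryl hydrocarbon receptor, had 134, 143 and 156 with DMSO and 360, 343 and 348 with R406 (1.28 ± 0.18, limma, adjusted p = 4.61e-05). HMOX1, which degrades heme, had 62.9, 52.7 and 56.0 and then 148, 152 and 150 (1.38 ± 0.14). NQO1, a quinone reductase induced by NRF2 and by the same receptor, had 458, 392 and 446 and then 728, 770 and 804 (0.83 ± 0.094). All were separate between the groups, and the R406 arrays agreed closely. Of 12 aryl hydrocarbon receptor genes 4 rose (6.10% of all genes did) and none fell. Of 34 NRF2 genes 12 lay below 0, 1 fell (5.43% of all genes did) and 6 rose (6.10%). The latter count was 3 without DMSO replicate 2 or R406 replicate 2. BLVRB, which reduces biliverdin, the product of heme breakdown, rose by 0.47 ± 0.098. TMT1A, a methyltransferase of the endoplasmic reticulum, had 54.6, 61.0 and 64.0 and then 157, 169 and 162 (1.43 ± 0.078), or 0.53 with its probe sets averaged.

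The beta 3 integrin named in the title of the series, and its alpha V partner, did not pass the test. The alpha V chain ITGAV read 54.0, 47.1 and 49.9 with DMSO and 54.1, 61.9 and 67.5 with R406 (0.27 ± 0.13, limma, adjusted p = 0.215), with a narrow gap between the groups. The beta 3 chain ITGB3 read 6.38, 9.59 and 6.81 against 6.64, 7.14 and 8.67 (-0.01 ± 0.12, limma, adjusted p = 0.985), near the floor of the array and overlapping. In the list of 34 integrins and adhesion molecules, 6 rose (6.10% of all genes did) and 3 fell (5.43%), with a median of 0.05. Among those that rose were ITGAM (0.76) and its partner ITGB2 (0.24). The 3 that fell became 1 without DMSO replicate 2 or 3 or R406 replicate 1 or 3, and 2 without DMSO replicate 1 or R406 replicate 2. CD44, the receptor for hyaluronan, had 848, 826 and 871 and then 606, 581 and 584 (-0.52 ± 0.057, limma, adjusted p = 3.31e-06), with no overlap.

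To ask where the U937 response differed from the other lines, the U937 effect was tested against the mean effect of MOLM-14, HL-60 and KG-1. The difference was called for 2039 genes toward higher in U937 (16.8%) and for 1802 toward lower (14.8%). Pair by pair, it was called for 43.8% of genes against MOLM-14, 7.23% against HL-60 and 33.3% against KG-1. Across all 12165 genes the log2 fold changes in U937 correlated with those in MOLM-14 at r = 0.38, in HL-60 at 0.21 and in KG-1 at 0.39, as a description, since genes are not independent replicates.

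Of the 742 genes called higher in U937, 513 (69.1%) were called higher in MOLM-14, where 31.1% of all genes were called higher and the shared genes made up 13.6% of these. The figures were 207 (27.9%) and 23.6% for HL-60, which called 7.20% of all genes higher, and 452 (60.9%) and 15.8% for KG-1, which called 23.5%. Of the 660 called lower, 499 (75.6%) were also lower in MOLM-14, 269 (40.8%) in HL-60 and 466 (70.6%) in KG-1, where 25.0%, 7.98% and 20.9% of all genes were called lower. These shared genes made up 16.4%, 27.7% and 18.4% of the lower calls of those lines. In all 3 other lines 129 of the genes higher and 218 of those lower had the same call, and 58 and 42 were called in none of the 3.

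CCL2 differed most from the other lines. Its change of -2.40 in U937 stood beside -0.43 in MOLM-14, 1.68 in HL-60 and -0.37 in KG-1, a difference from their mean of -2.69 ± 0.14 (limma, adjusted p = 1.51e-11). CXCL8 changed by -1.35 in U937, -0.21 in MOLM-14, 1.17 in HL-60 and 1.84 in KG-1 (difference -2.28 ± 0.14). IL1B changed by -0.79, -0.26, 1.92 and 0.30 in the same order (difference -1.44 ± 0.14). For these 3 secreted factors the U937 value was the lowest of the 4 lines. The receptor CCR2 was the reverse case, at 0.88 in U937 and -1.07, -1.88 and -0.70 in the others (difference 2.10 ± 0.15, limma, adjusted p = 1.34e-09).

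DUSP6 separated the lines in the other direction. It changed by 0.03 in U937, -3.99 in MOLM-14, 1.10 in HL-60 and -3.85 in KG-1, a difference of 2.28 ± 0.12 (limma, adjusted p = 1.51e-11). MYC changed by -0.80 in U937, -3.38 in MOLM-14, -0.62 in HL-60 and -2.11 in KG-1 (difference 1.24 ± 0.11). SLC7A5 changed by -1.04, -3.29, -0.25 and -2.59 (difference 1.00 ± 0.097). The U937 values of MYC and SLC7A5 thus lay between HL-60 and the other 2 lines. ATF4 was called in U937 and in none of the others, with -0.68 against -0.08 in MOLM-14, -0.09 in HL-60 and -0.02 in KG-1 (difference -0.61 ± 0.068, limma, adjusted p = 3.87e-07). MMP1 changed by -1.17 in U937 and by 0.06, -0.08 and -0.11 in the others (difference -1.12 ± 0.12). CHI3L1 rose by 1.30 in U937 and by 0.61 in MOLM-14, and read 0.10 in HL-60 and 0.02 in KG-1 (difference 1.06 ± 0.10).

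**Figure D4:**
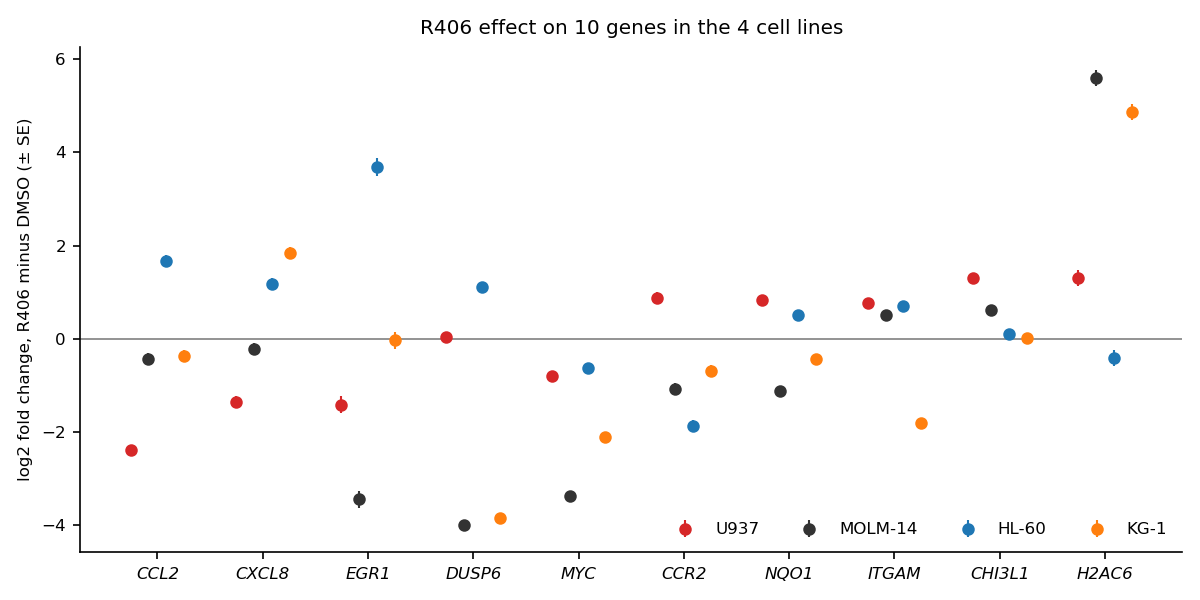
Log2 fold change, R406 minus DMSO, of 10 genes in U937 (red), MOLM-14 (black), HL-60 (blue) and KG-1 (orange), each from 3 against 3 arrays, with the SE of the model. CCL2 and CXCL8 are lowest in U937, and DUSP6 lies at 0.03 in U937 against -3.99 in MOLM-14 and -3.85 in KG-1.

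By list, most mitosis genes differed from the mean of the other lines. The difference from the mean of the other lines was called toward higher for 45 of 48, against 16.8% of all genes, with a median of 0.90. The list median was 0.43 in U937, 0.40 in HL-60, -1.42 in MOLM-14 and -0.43 in KG-1. Against HL-60 alone, 1 of the 48 was called. CDK1 changed by 0.35 in U937, -1.59 in MOLM-14, 0.35 in HL-60 and -0.43 in KG-1 (difference 0.91 ± 0.16). AURKB, a kinase of chromosome alignment, changed by 0.48, -1.11, 0.36 and -0.78 (difference 0.99 ± 0.17). The DNA replication list had medians of 0.05 in U937 and 0.05 in HL-60, against -2.03 in MOLM-14 and -1.13 in KG-1. For 38 of its 40 members the difference was called toward higher in U937.

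Ribosome biogenesis genes fell less in U937 than in the mean of the others, with the difference called toward higher for 46 of 52 and toward lower for 1. Their medians were -0.39 in U937, -0.33 in HL-60, -1.94 in MOLM-14 and -1.40 in KG-1. The lysosomal enzyme list had medians of 0.23 in U937, 0.01 in HL-60, 0.96 in MOLM-14 and 0.42 in KG-1, and its difference was called for 5 members toward higher and 19 toward lower. The ERK output list, at -0.38 in U937, had medians of 0.38 in HL-60, -0.89 in MOLM-14 and -0.26 in KG-1. Its difference was called toward higher for 4 members and toward lower for 5. The histone list stood at 0.05 in U937 and 1.33 in MOLM-14, and H2AC6, which rose by 1.31 in U937, rose by 5.60 in MOLM-14 and 4.86 in KG-1 and changed by -0.42 in HL-60 (difference -2.04 ± 0.20).

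**Figure D5:**
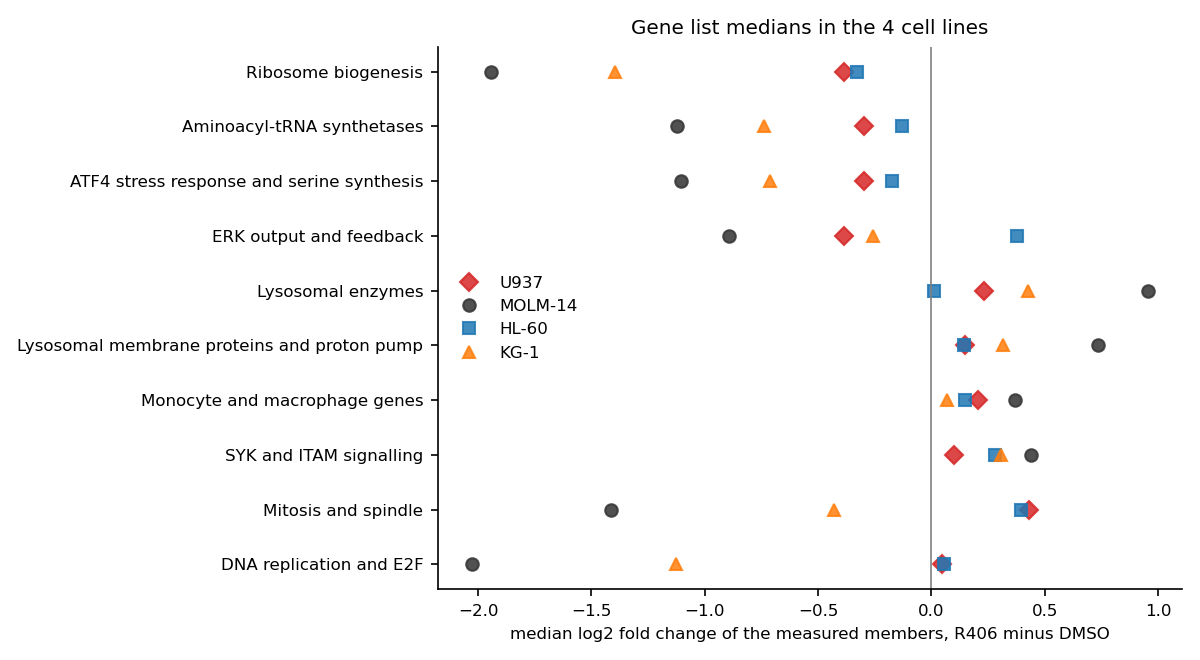
Median log2 fold change, R406 minus DMSO, of the measured members of 10 gene lists in U937 (red diamonds), MOLM-14 (black circles), HL-60 (blue squares) and KG-1 (orange triangles). U937 and HL-60 lie close together for mitosis and spindle genes (0.43 and 0.40) and for ribosome biogenesis (-0.39 and -0.33), and on opposite sides of 0 for ERK output (-0.38 and 0.38).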

How the data were processed

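RNA of the 6 U937 arrays and the 18 arrays of the other lines was measured on 1-colour Affymetrix arrays. The deposited values are probe set intensities on a linear scale, made by the authors with RMA per the submitters' processing notes, without a stated version. RMA usually includes background correction and quantile normalization, which removes overall shifts between arrays. Samples were grouped by the labels.

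Of 22277 probe sets, 62 controls, 568 with several symbols and 1923 with none were left out. Each of 12165 genes was read from its probe set with the highest mean over 24 arrays. There were 4505 genes with several probe sets, and 5111 were read from a probe set that may bind related transcripts. A pseudocount of 1 was added before log2. limma 3.58.1 in R 4.3.3 (lmFit, eBayes) fitted 8 group means (16 residual and 5.47 prior degrees of freedom), with Benjamini-Hochberg adjustment over all genes. The scripts were tested on simulated data. Promoters were matched by symbol for 9711 genes. Motifs other than those printed were searched as well. The xenobiotic response element GCGTG was in 40% of promoters of the aryl hydrocarbon receptor list, against 41.6% of all. The antioxidant response element TGACNNNGC was in 21.7% of those of the NRF2 list, against 12% of all. None of the 5 called NRF2 genes with a promoter had it.

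The genes named are the 20 highest and 20 lowest called changes with no overlap, a panel of 14, up to 5 members of each of 53 lists by p (1497 of 1717 members measured), and the 10 highest and 10 lowest differences between lines. Named outside this rule, after their values were seen, were NEU1, SCPEP1, CTSA, PSAP, GM2A, ACP2, TFEB, TFE3, CDK1, CDC20, PLK1, AURKB, BUB3, MAD2L1, MCM7, E2F1, CYBB, CD86, GPNMB, TNF, FCER1G, LYN, IFITM2, IFITM3, SLC7A7, TRIB3 and the markers CD4, CD68 and SPI1. The figure of mitosis genes shows a whole list. Members and lists were chosen with earlier results of these data known. Of 248 named genes that were called, 189 other probe sets were present, 159 with the same sign and 30 with the opposite sign, and 1 of these, for HP, had p under 0.05.

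Alternatives were quantile normalization, median centring, leaving out the dimmest genes (8110 kept), mean of probe sets, a pseudocount of 16, U937 arrays only, leaving out KG-1 R406 replicate 2, a replicate block, trend and robust eBayes, and each U937 array left out.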

Additional observations from a re-analysis of the deposited data

Results flagged for a closer look

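The genes below stood out because their R406 effect in U937 differed from the mean effect in MOLM-14, HL-60 and KG-1 in the test of that difference (limma, adjusted p under 0.05 over 12165 genes). Values are differences in log2 fold change, U937 minus the mean of the other lines. Many of them were picked for a large change in U937 or a large difference, so the size of the differences is a description.

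Among secreted and surface proteins, the difference was -2.69 for CCL2, -2.28 for CXCL8, -1.44 for IL1B, -1.12 for MMP1, -1.10 for CD44 and -1.91 for the metalloprotease ADAM28. It was 2.10 for CCR2, 1.97 for MS4A4A, 1.84 for the protease inhibitor SLPI, 1.06 for CHI3L1, 0.95 for C2, 0.95 for ITGAM, 0.82 for FCGR2B, 0.68 for S100A8 and 0.21 for ANXA1. It was -0.76 for TYROBP, -0.51 for ITGAV, -0.73 for the receptor kinase FLT3, -0.60 for CD14 and -1.66 for the selenium carrier SELENOP. The brightest probe set of HP gave 1.07, but its probe sets moved in opposite directions in U937, so no direction is given for this gene. TMEM158, a membrane protein, had -1.50, and GAL, the neuropeptide galanin, had 0.78.

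Among signalling genes and transcription factors, the difference was 2.28 for DUSP6, 1.18 for ETV5 and 0.56 for RGS16, against -1.48 for EGR1, -0.88 for PHLDA2 and -1.11 for the phosphodiesterase PDE9A. It was 1.24 for MYC, 0.39 for BATF3, 0.30 for CCND2, -0.40 for DLX2 and -0.61 for ATF4.

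Among metabolic genes, SLC7A5 had 1.00, PSAT1 1.49, CBS 1.02, NQO1 1.18, NME1, a nucleotide kinase, 1.97, and PUS7, a pseudouridine synthase, 1.90. The peroxisomal oxidase ACOX2 had -1.19 and the monooxygenase FMO1 -1.76.

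Among genes of replication and mitosis, MCM10 had 2.17, GINS2 1.87, TRIP13 2.01, CDK1 0.91 and AURKB 0.99. The histone genes H2BC5, H2AC6, H2AC17, H2AC8 and H2BC12 had -2.14, -2.04, -1.90, -1.73 and -0.95. The remaining genes were MYO15B (-1.96), TRIM14 (1.91), NAV2 (1.02), OPTN (0.67) and IFI35 (0.71). The U937 changes themselves were small for some, at -0.18 for MYO15B, 0.11 for TRIM14 and -0.14 for ADAM28. Each of these had another probe set with the opposite sign in U937. The call for ITGAV was lost without U937 R406 replicate 1 and that for RGS16 without U937 DMSO replicate 1.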

How the results depend on the processing

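Over the alternatives, genes called higher ranged from 507 to 1062 and genes called lower from 428 to 864. Leaving out each U937 array gave 507 to 553 higher and 428 to 478 lower (434 without R406 replicate 1 and 428 without R406 replicate 3), which rests on fewer samples. For the difference from the other lines these fits gave 1819 to 1888 higher and 1509 to 1629 lower. The labels do not say whether replicate numbers pair the arrays. Deviations of same-numbered U937 arrays correlated at -0.0046, 0.033 and 0.023. Replicates 2 and 3 correlated best with their own number and replicate 1 did not. Correlations this small cannot decide whether the arrays were paired. With the replicate block, 664 genes were called higher and 528 lower, and the difference was called for 1979 and 1746, so the block moved none of these 4 counts by over 1.5 times. By list it took the MHC class I genes called higher from 6 to 3, the myeloid transcription factors called higher from 4 to 2 and the splicing factors called lower from 4 to 0. Median centring gave 583 higher and 839 lower. Leaving out the dimmest genes gave 828 and 730 of 8110, leaving out KG-1 R406 replicate 2 gave 950 and 791, a pseudocount of 16 gave 903 and 804, and every probe set tested on its own gave 946 and 866 of 19724.

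Of 248 called named genes, 165 were called under every alternative, and no called U937 change of a named gene reversed its sign. Of the differences between lines, 1 reversed: HLA-DMA, at 0.149 with a pseudocount of 1 (limma, adjusted p = 0.361), was at -0.322 with a pseudocount of 16 (limma, adjusted p = 0.00107) and between 0.00187 and 0.227 in the other fits. This alternative compresses changes of dim genes by construction. The call for the ANXA1 difference was lost under quantile normalization, the replicate block and 5 of 6 left-out U937 arrays, and that for DLX2 in 5 of these 6. Signal limits what can be read for genes near the floor, such as CD14 and ITGB3.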

Other observations

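The parts of the protein synthesis machinery did not move alike. Of 50 mitochondrial ribosomal proteins, 15 fell and none rose (5.43% of all genes fell), with a median of -0.14, and the count was 9 without DMSO replicate 1. MRPS2, of the small subunit, had 293, 327 and 297 with DMSO and 242, 226 and 220 with R406 (-0.41 ± 0.077, limma, adjusted p = 0.000910), and MRPL3, of the large subunit, had 2826, 2764 and 2746 and then 2241, 2165 and 2075 (-0.36 ± 0.069). Of 66 cytosolic ribosomal proteins, none fell (5.43% of all genes did) and 1 rose (6.10%), with a median of -0.02. The member that rose, RPS27L, a paralog of RPS27, had 2077, 2102 and 2074 and then 2379, 2424 and 2542 (0.23 ± 0.058), a call lost without R406 replicate 3. At an unadjusted p under 0.05, 2689 genes passed in U937, and trend and robust eBayes called 4 of the 66 lower. Of 53 translation factors, 12 fell (5.43% of all genes did) and 1 rose (6.10%), the repressor EIF4EBP2 (0.30 ± 0.074, lost without R406 replicate 1). The initiation factors EIF3J and EIF3B fell by 0.42 ± 0.068 and 0.32 ± 0.065 on the log2 scale. Of 69 oxidative phosphorylation genes, 3 rose (6.10% of all genes did) and none fell, with a median of 0.01.

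Of 34 proteasome subunits, 2 rose (6.10% of all genes did), the immunoproteasome subunits PSMB9 and PSMB10, and 4 fell (5.43%), among them the ATPase PSMC4 (-0.28 ± 0.063). The lower count was 2 without DMSO replicate 1 or R406 replicate 2 and 7 without KG-1 R406 replicate 2. Of 26 genes of the BCL2 family and apoptosis list, 5 rose (6.10% of all genes did) and 4 fell (5.43%), with a median of 0.02. Without DMSO replicate 2 the counts were 2 and 1. They were 3 and 2 without R406 replicate 3, 4 and 2 without R406 replicate 2, and 3 and 3 without DMSO replicate 3 or R406 replicate 1. PMAIP1, which opposes MCL1, had 372, 409 and 415 and then 271, 281 and 273 (-0.53 ± 0.099), and BCL2, the survival protein, fell by 0.48 ± 0.12, a call lost without DMSO replicate 2 or R406 replicate 2 and with its probe sets averaged. CASP1, the protease that matures IL1B, had 118, 98.6 and 108 and then 151, 148 and 155 (0.48 ± 0.12), a call lost without DMSO replicate 2. The mitophagy receptor BNIP3L rose by 0.48 ± 0.096. ID2, which blocks basic helix-loop-helix factors, had 613, 667 and 774 and then 1209, 1180 and 1300 (0.85 ± 0.10, limma, adjusted p = 7.65e-06). Of 28 myeloid transcription factors 4 rose (6.10% of all genes did) and 3 fell (5.43%), or 2 rose in each fit without a U937 array other than DMSO replicate 3. MEIS1 and IKZF1 changed by 0.32 ± 0.069 and -0.37 ± 0.089. Of 34 glycolysis and hypoxia genes 5 fell (5.43% of all genes did) and 2 rose (6.10%), BNIP3L among the latter, with a median of -0.08. Without R406 replicate 1, 3 fell, while 1 rose when any single other U937 array was left out. The glucose transporter SLC2A1 changed by -0.39 ± 0.082 and the kinase PDK1, which holds pyruvate from oxidation, by -0.48 ± 0.10.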
